A study of Mus musculus with 4 samples.

Results

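The hair follicle stem cell regulators described here are 10 mouse genes, Sox9, Lhx2, Tcf7l1, Nfatc1, Tbx1, Foxc1, Runx1, Lgr5, Lgr6 and Cd34, taken by name and not by any measured value. Open chromatin was read at each gene from ATAC-seq peaks, which mark places where the Tn5 transposase could insert sequencing adapters into DNA. Peaks of all libraries were merged into an atlas of 82641 regions wherever they shared at least 1 bp, and 116 of these regions lay in a gene body or within 50 kb of one. These 116 regions are numbered in order of coordinate within each gene's window, so that Runx1 region 1 has the lowest coordinate at Runx1. The outermost region inside a window was 47.3 kb from Lhx2, with 14 fragments in WT 2 and 26 in Mapk8-KO 1, and the first one outside was 50.9 kb from Nfatc1, with 77 and 54 fragments in the WT and 85 and 34 in the Mapk8-KO libraries.

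The 4 libraries came from keratinocytes, the main cells of the epidermis, of age-matched adult female mice whose skin had received Aldara cream with 5% imiquimod, an inflammatory agent, on 8 days. Of these, 2 were wild type (WT) and 2 were Mapk8-KO, in which a floxed Mapk8 gene, encoding the kinase JNK1, had been removed by a Cre recombinase that the keratin 14 promoter drives in basal keratinocytes and their descendants. Both genotypes received the same cream and no untreated library was compared, so every value below belongs to inflamed skin. The study's methods describe a sort for EpCam+ CD49f hi cells, with antibodies against CD45, CD31 and CD140a in the mix and none against Cd34, so that no marker named there parted follicular from interfollicular keratinocytes. Whether the WT mice carried the Cre or a floxed allele is not given in the labels.

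Hair follicles hold a reservoir of slowly cycling stem cells in the bulge, below the sebaceous gland. Sox9, Lhx2, Tcf7l1, Nfatc1, Tbx1, Foxc1 and Runx1 are transcription factors that set up bulge stem cells, hold them quiescent or release them into growth. Lgr5 and Lgr6 are receptors for R-spondins, secreted proteins that strengthen Wnt signalling, and mark the lower bulge with the hair germ and the isthmus, respectively. Cd34 is a cell surface sialomucin used to sort bulge cells in the mouse.

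Depth, recovered from the pileup of fragments at peak summits, relative to WT 1 was 0.694 for the second WT library, 1.12 for the first Mapk8-KO library and 0.646 for the second, so the shallower library of each genotype was replicate 2. The lowest summit pileup listed was 8 to 10 fragments per library, and a region without a peak may have held signal under that level. The promoter of Mapk8 itself was called in all 4 libraries, with 96 and 73 fragments in WT and 109 and 90 in Mapk8-KO, which does not test the deletion because that promoter was not stated to be removed. As to cell type markers, a peak no more than 2 kb from the transcription start site was called for 7 of 7 basal keratinocyte markers in WT 1, WT 2 and Mapk8-KO 1 and for 6 of 7 in Mapk8-KO 2, where Krt5 was missing. No such peak was found in any library for 7 of 7 haematopoietic markers, for the endothelial marker Cdh5 and for the fibroblast markers Col1a2 and Col3a1, whereas 3 of 4 melanocyte markers (not Tyr), 2 of 4 endothelial and 2 of 4 fibroblast markers were called in all 4. Of 5 suprabasal keratinocyte markers, 3 (Krt10, Ivl and Lor) were called in all 4 libraries, Krt1 in all but Mapk8-KO 2, and Flg in none. The promoter of Krt14, the gene whose promoter drives the Cre, had 38 and 17 fragments in WT and 199 and 109 in Mapk8-KO libraries. The cause of that difference was not tested.

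The promoters of Runx1, Foxc1 and Cd34 are shown first, because the clearest contrast among these genes was between promoters that carried a peak in every library and promoters that carried none. The sequences are RefSeq promoters on GRCm38.p6, the assembly that mm10 denotes, each 300 bases long around a start site and written along the strand of the gene, with every CG dinucleotide in capitals. The proximal Runx1 promoter P2 (chr16:92697280-92697579, minus strand) and the Foxc1 promoter (chr13:31806396-31806695, plus strand) overlapped a peak in each library. The distal Runx1 promoter P1 (chr16:92826025-92826324, minus strand) and the Cd34 promoter (chr1:194938571-194938870, plus strand) overlapped none.
Runx1 P2: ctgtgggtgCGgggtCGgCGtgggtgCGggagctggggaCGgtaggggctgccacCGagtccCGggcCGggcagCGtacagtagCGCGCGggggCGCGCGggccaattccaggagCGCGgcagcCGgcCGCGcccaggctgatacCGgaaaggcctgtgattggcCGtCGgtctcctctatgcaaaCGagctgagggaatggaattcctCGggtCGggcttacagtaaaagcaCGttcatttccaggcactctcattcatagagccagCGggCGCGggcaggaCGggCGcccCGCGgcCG
Foxc1: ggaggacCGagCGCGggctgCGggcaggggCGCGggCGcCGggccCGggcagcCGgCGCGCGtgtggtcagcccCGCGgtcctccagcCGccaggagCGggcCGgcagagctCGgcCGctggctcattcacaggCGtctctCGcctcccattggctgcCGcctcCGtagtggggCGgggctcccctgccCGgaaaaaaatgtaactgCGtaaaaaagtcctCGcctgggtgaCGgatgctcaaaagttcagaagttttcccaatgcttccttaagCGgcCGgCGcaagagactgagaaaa
Runx1 P1: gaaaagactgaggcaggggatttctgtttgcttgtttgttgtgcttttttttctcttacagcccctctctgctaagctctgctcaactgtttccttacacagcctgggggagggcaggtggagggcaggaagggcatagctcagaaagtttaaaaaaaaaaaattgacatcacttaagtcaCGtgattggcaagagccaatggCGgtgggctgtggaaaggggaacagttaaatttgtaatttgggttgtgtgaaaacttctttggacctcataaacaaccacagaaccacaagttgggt
Cd34: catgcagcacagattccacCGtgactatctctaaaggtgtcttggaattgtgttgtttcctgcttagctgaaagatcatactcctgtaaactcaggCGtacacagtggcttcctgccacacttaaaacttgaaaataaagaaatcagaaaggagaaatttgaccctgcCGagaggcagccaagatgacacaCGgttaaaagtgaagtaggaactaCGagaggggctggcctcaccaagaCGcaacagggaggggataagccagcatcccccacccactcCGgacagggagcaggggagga

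The P2 promoter of Runx1 held 35 CG dinucleotides and the Foxc1 promoter 32, whereas the P1 promoter of Runx1 held 2 and the Cd34 promoter 7, against a median of 7 over 32851 RefSeq promoters. RefSeq promoters were matched for 7 of the 10 genes, with 10 promoters in all. The promoter of Tcf7l1 (34 CG dinucleotides) and the downstream promoter of Lhx2 (29) overlapped a peak in each library, and the upstream one of Lhx2 (34) in every library but WT 2. The order was not one of CG content alone, because both Tbx1 promoters, with 26 and 16 CG dinucleotides, overlapped no peak in any library, and that of Lgr6, with 24, overlapped one in WT 1 only.

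Within 2 kb of their own start sites, 6 of the 10 genes had a peak in all 4 libraries: Sox9, Lhx2, Tcf7l1, Nfatc1, Foxc1 and Runx1. All of them are transcription factors, but so is Tbx1, which had none. The share over all annotated promoters was not computed, and among 20 other hair follicle genes 15 had such a peak in all 4 libraries. The highest promoter was that of Runx1, where the summit held 84, 77, 110 and 51 fragments, 4 values always being given in the order WT 1, WT 2, Mapk8-KO 1, Mapk8-KO 2. Scaled to the depth of WT 1, these were 84.0, 110.9, 98.5 and 78.9, so the WT and Mapk8-KO values were interleaved and limma gave a log2 difference (WT minus Mapk8-KO) of 0.08 ± 0.19 (SE, n = 2 and 2, adjusted p = 0.913). The Sox9 promoter held 40, 39, 47 and 24 fragments in the same order of libraries, and that of Tcf7l1, a repressor of Wnt target genes, held 29, 19, 29 and 18. Neither separated the genotypes, with limma log2 differences of 0.21 ± 0.25 for Sox9 (adjusted p = 0.80) and 0.02 ± 0.30 for Tcf7l1 (adjusted p = 0.992).

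At Lhx2, the downstream start site carried 35 and 24 fragments in WT and 51 and 31 in Mapk8-KO libraries. Scaled for depth these were 35.0 and 34.6 against 45.7 and 48.0, so that the groups did not overlap, but the log2 difference of -0.48 ± 0.26 did not pass limma's test (adjusted p = 0.489). The upstream start site of Lhx2 had no peak in WT 2, and in the other libraries 22 (WT 1), 18 (Mapk8-KO 1) and 10 (Mapk8-KO 2) fragments.

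At their promoters, the receptor genes Lgr5 and Lgr6 were called in 3 and 2 of the 4 libraries. Lgr5 had 13, 16 and 14 fragments over its start site in WT 1, Mapk8-KO 1 and Mapk8-KO 2, close to the lowest pileups listed, and no peak in WT 2. A second Lgr5 region, 991 bp from the nearest start site, was called in WT 1 and Mapk8-KO 2 with 18 and 13 fragments. At Lgr6, WT 1 had 20 fragments over the start site, and Mapk8-KO 1 had 13 at a separate region 804 bp from it. Tbx1 and Cd34 had no peak at a promoter in any library, and Cd34 had none in its gene body either. In bulk libraries such as these, fewer cells of a type and less accessibility per cell cannot be told apart.

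**Figure D1:**
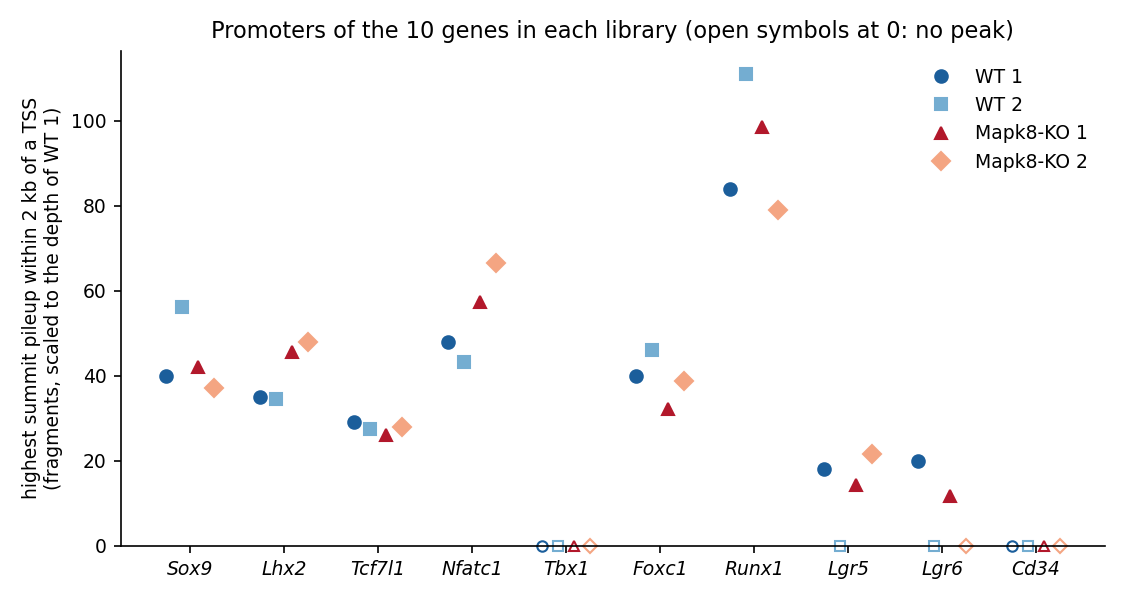
Highest summit pileup within 2 kb of a start site of each gene (fragments, scaled to the depth of WT 1), with 1 symbol per library and open symbols at 0 where no peak was called. Runx1 stands highest, at 78.9 to 110.9, and Tbx1 and Cd34 have no promoter peak in any of the 4 libraries.

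Taking promoters and distal regions together, 50 of the 116 regions (43.1%) were called in all 4 libraries, against 48.6% of the atlas. A further 22 were called in 3 libraries, 14 in 2 and 30 in 1, the last being 25.9% against 21.7% of the atlas. The WT libraries held 97 and 70 of the regions and the Mapk8-KO libraries 91 and 66, so the deeper library of each genotype held more. Of the 30 regions called once, 15 were in WT 1 and 12 in Mapk8-KO 1, the deeper libraries, and only 1 was in WT 2 and 2 in Mapk8-KO 2. Regions called everywhere but Mapk8-KO 2 numbered 12 (10.3%, against 9.91% of the atlas), and 9 were called everywhere but WT 2 (7.76%, against 4.86%).

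Nfatc1 had the most regions, 23, or 11.1 per 100 kb of its window, and Lgr5 the sparsest window, with 9 regions or 3.79 per 100 kb. All 10 genes together had 6.35 per 100 kb. No Nfatc1 region was called in just 1 library, whereas 6 of 14 Lgr6 regions and 6 of 18 Runx1 regions were. The nearest start site was the gene's own for 43 of the 116 regions, and 33 (28.4%) lay in a promoter of any gene, against 26.7% of the atlas. By position, 54 regions were in the gene bodies, 30 upstream and 32 downstream.

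**Figure D2:**
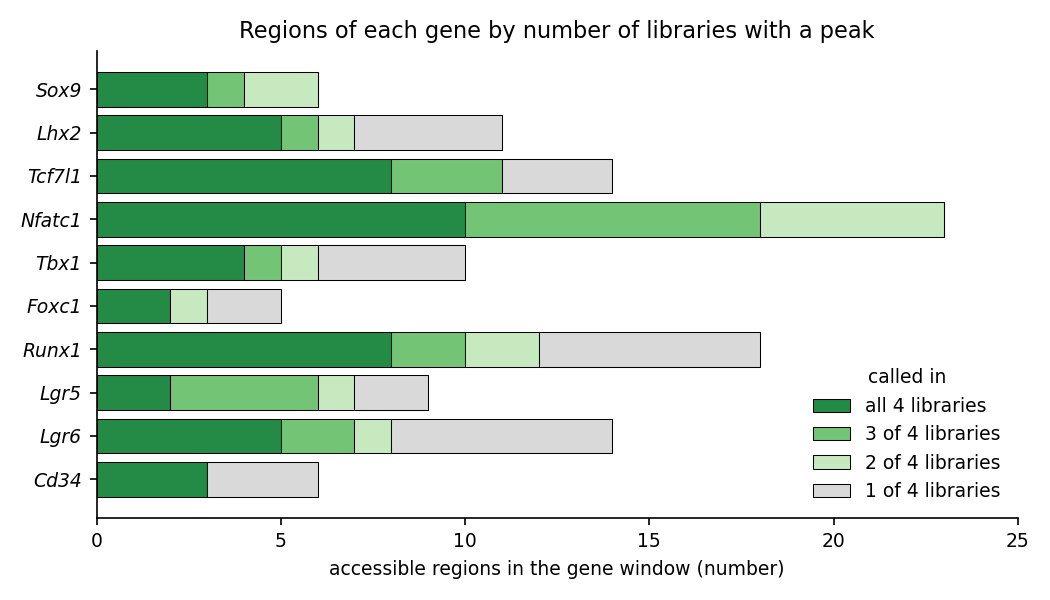
Number of accessible regions in the window of each gene (gene body and 50 kb on each side), split by how many of the 4 libraries had a peak there. Nfatc1 has 23 regions, 10 of them in all 4 libraries, and Lgr5 has 2 of 9 in all 4.

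Among the regions called in all 4 libraries, the strongest outside promoters was taken for each gene by the percentile of its fold enrichment within each library's list, where 100 is the highest. Such regions stood above the 90th percentile in all 4 libraries at Runx1 and Tbx1 only. The Runx1 region, region 3 (chr16:92597760-92598289, intergenic, downstream of the gene), had percentiles of 98.0 and 93.2 in WT and 95.9 and 96.9 in Mapk8-KO. That in the Tbx1 window, region 3 (chr16:18547915-18548434), had 97.1, 94.8, 95.3 and 96.3 but overlapped an exon of the neighbouring gene Gnb1l.

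Next came an Nfatc1 window region in an intron of the gene downstream, with 136, 83, 163 and 67 fragments, and Cd34 region 3 (chr1:194962296-194963280), just past the end of Cd34 in an intron of Gm16897, with 113, 110, 154 and 58 fragments. Their limma log2 differences were 0.00 ± 0.18 and 0.22 ± 0.18, neither called (adjusted p = 0.998 and 0.69). Cd34 region 4 (chr1:194976067-194977073), the promoter of A330023F24Rik, was as high, with 146, 115, 206 and 108 fragments. So the Cd34 window was accessible at its downstream neighbours, although Cd34 itself was not called. At Lgr5, the highest region (chr10:115436015-115436645) likewise lay downstream of the gene, with 94, 53, 73 and 43 fragments.

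At Sox9 the highest distal region was region 5 (chr11:112811074-112811838, intergenic, 28850 bp from the start site), with percentiles of 90.7, 79.5, 76.8 and 80.3. Tcf7l1 region 8 (chr6:72724292-72725011), in an intron of the gene, had 91.2, 78.6, 89.6 and 82.5, and Lhx2 region 7 (chr2:38368734-38369088), in an exon, had 89.7, 86.1, 81.5 and 93.3. For these 3 genes the libraries of one genotype were as far apart as the genotypes. The Lgr6 and Foxc1 windows had no distal region of that rank among those called in all 4 libraries: Lgr6 region 11 reached at most 41.2 and Foxc1 region 3 (chr13:31800627-31801583) at most 57.1. Lgr6 region 6 (chr1:135077468-135077834), an intron, reached 70.3 in Mapk8-KO 1 but had 40.3 in WT 1, 23.8 in Mapk8-KO 2 and no peak in WT 2.

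Which regions differed between the genotypes was asked first from the calls. A region was WT-specific when both WT libraries and no Mapk8-KO library had a peak, and 4 of the 116 regions (3.45%) met this, against 2.17% of the atlas. The reverse, Mapk8-KO-specific, held for 1 region (0.862%, against 1.65% of the atlas). Both shares are counts of few regions, and no test was made on them. With the lists cut to equal length the order turned, with 2 WT-specific and 3 Mapk8-KO-specific regions. The WT-specific regions outside Nfatc1 and the Mapk8-KO-specific region are given as the 100 bases on each side of the strongest summit, on the plus strand of mm10, at chr11:112800776-112800976 (Sox9 region 4), chr16:18574429-18574629 (Tbx1 region 4), chr16:92740140-92740340 (Runx1 region 16) and chr16:92581085-92581285 (Runx1 region 2). Capitals in the first 3 mark TGACTCA or TGAGTCA, the site of the AP-1 factors to which the JNK substrate c-Jun belongs. In the last they mark TAATTA, a homeodomain core. The WT-specific Nfatc1 region, not printed, had no AP-1 site within 100 bp of its summit.
Sox9 region 4: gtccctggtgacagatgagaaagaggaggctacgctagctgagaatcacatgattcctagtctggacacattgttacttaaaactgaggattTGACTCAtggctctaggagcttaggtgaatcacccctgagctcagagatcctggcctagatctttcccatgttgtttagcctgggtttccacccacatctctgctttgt
Tbx1 region 4: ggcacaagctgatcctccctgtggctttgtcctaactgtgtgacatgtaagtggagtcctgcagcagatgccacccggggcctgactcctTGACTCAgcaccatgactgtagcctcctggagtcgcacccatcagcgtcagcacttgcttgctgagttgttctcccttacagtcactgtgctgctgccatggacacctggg
Runx1 region 16: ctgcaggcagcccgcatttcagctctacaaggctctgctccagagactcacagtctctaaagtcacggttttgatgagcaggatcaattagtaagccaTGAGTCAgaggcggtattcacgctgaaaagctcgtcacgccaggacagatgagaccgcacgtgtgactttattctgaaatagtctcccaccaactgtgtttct
Runx1 region 2: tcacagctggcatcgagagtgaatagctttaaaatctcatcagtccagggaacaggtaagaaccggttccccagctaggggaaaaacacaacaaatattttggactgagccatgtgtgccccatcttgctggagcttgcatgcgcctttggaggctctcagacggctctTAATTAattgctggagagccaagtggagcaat

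Tbx1 region 4 was the strongest WT-specific region, with 33 fragments in WT 1 and 20 in WT 2, at percentiles 79.7 and 56.8 of their lists. It was intergenic, 12316 bp from the nearest Tbx1 start site on the side of the gene's end (chr16:18574317-18574653). Runx1 region 16 (chr16:92740106-92740331), in an intron between P1 and P2, had 28 and 19 fragments, at percentiles 68.8 and 52.5. These values stood well above the lowest pileup listed, and both regions were still WT-specific when the 4 lists were cut to equal length. Because that cut only drops peaks, it shows that the WT peaks ranked high and not that Mapk8-KO signal was absent.

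Sox9 region 4 (chr11:112800723-112800978, intergenic, 18499 bp from the start site) was weaker, with 15 and 14 fragments. With lists of equal length it was called in WT 2 only, and was no longer WT-specific. The Mapk8-KO-specific Runx1 region 2 (chr16:92581022-92581301, intergenic, downstream of the gene) had 17 and 16 fragments, and was called in Mapk8-KO 2 only with equal lists. The fourth WT-specific region, in an intron of Nfatc1, had 15 and 11 fragments, no AP-1 site, and was called in no library with equal lists. Hence the specific calls at Tbx1 and Runx1 region 16 rested on more fragments than the other 3.

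The AP-1 site was present within 100 bp of the summit in 3 of the 4 WT-specific regions and not in the Mapk8-KO-specific one. Across the atlas it was present in 35.9% of WT-specific and 7.46% of Mapk8-KO-specific regions. Over all 116 regions of the 10 genes it was present in 23, or 19.8% (Wilson 95% interval 13.6 to 28.0, for counting error only), against 23.8% of the atlas. Away from promoters these shares were 21.7% and 28.1%. Nfatc1 had 7 regions with the site and Runx1 4, and Foxc1 had none.

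Motifs named for factor families among these genes were present at shares near or under those of the atlas. The RUNX motif TGTGGTT was within 100 bp of the summit in 3 of 116 regions (2.59%, against 4.00% of the atlas), and 2 of the 3 were introns of Runx1 itself, regions 4 and 6. The TCF/LEF motif CTTTGAT was in 3 (2.59%, against 2.63%), one of them Sox9 region 1. The homeodomain core TAATTA was in 5 (4.31%, against 4.48%), of which 4 were at Runx1 and 1 was the strong Sox9 region 5. The NFAT motif GGAAAAT was in 2 (1.72%, against 3.20%), both in the Tcf7l1 window. All motifs were searched on both strands, and a match describes letters, not a bound factor.

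A second comparison used only ranks, among the 50 regions called in all 4 libraries. A region passed when its lowest percentile in one genotype was at least 10 points above its highest in the other. Towards WT, 3 of 50 regions passed (6.0%, against 2.65% of regions called in all 4 libraries across the atlas), and towards Mapk8-KO also 3 (6.0%, against 3.78%). Percentiles did not overlap, by any margin, in 7 regions towards WT (14%, against 13.8%) and 9 towards Mapk8-KO (18%, against 18.9%), close to the background.

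The widest gap was at Cd34 region 1 (chr1:194895268-194895809, intergenic, 43010 bp upstream of Cd34), whose bases around the summit (chr1:194895392-194895592, plus strand) are given because it stood out by rank, with no motif of those searched and hence no capitals.
Cd34 region 1: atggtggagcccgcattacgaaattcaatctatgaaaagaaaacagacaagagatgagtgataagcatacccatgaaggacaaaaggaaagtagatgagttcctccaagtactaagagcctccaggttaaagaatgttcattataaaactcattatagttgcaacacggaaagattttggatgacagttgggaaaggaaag

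Cd34 region 1 had percentiles of 28.0 and 32.8 in WT and 73.4 and 63.0 in Mapk8-KO libraries. Its summit held 16 and 15 fragments in WT and 35 and 21 in Mapk8-KO, which scaled for depth were 16 and 21.6 against 31.3 and 32.5. Both Mapk8-KO libraries were thus above both WT libraries on either scale. The log2 pileup difference was -0.83 ± 0.31, and limma did not call it among all regions (adjusted p = 0.231). The start site nearest to it belonged to Gm23885, not to Cd34.

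The other 2 regions ranked higher in Mapk8-KO were Lgr6 region 11 (chr1:135127997-135128313), in an exon of the neighbouring gene Ptprv, and Runx1 region 5 (chr16:92609393-92609996), in an intron. Lgr6 region 11 had percentiles of 8.63 and 19.7 in WT and 34.6 and 41.2 in Mapk8-KO, with a log2 pileup difference of -0.54 ± 0.30 (limma adjusted p = 0.499). Runx1 region 5 had 33.6 and 35.7 against 52.5 and 52.0. Its scaled pileup was 53.0 and 64.8 in WT and 60.9 and 48.0 in Mapk8-KO, so its rank and its pileup did not tell the same story, and the log2 difference was 0.07 ± 0.22 (limma adjusted p = 0.946).

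Towards WT, the promoter of Foxc1, a forkhead factor that keeps bulge cells quiescent, had percentiles of 42.4 and 48.6 in WT and 23.7 and 21.9 in Mapk8-KO libraries. The fragments at its summit were 40, 32, 36 and 25, which scaled to 40.0 and 46.1 against 32.2 and 38.7, so the pileups separated much less than the ranks (log2 difference 0.23 ± 0.26, limma adjusted p = 0.789). Runx1 region 1 (chr16:92565534-92566269, intergenic) had percentiles of 51.3 and 43.2 against 9.93 and 23.8, and Runx1 region 8 (chr16:92631027-92631988, intronic) had 76.2 and 72.6 against 60.8 and 49.2. Their log2 differences of 0.55 ± 0.33 and 0.24 ± 0.24 were not called by limma (adjusted p = 0.536 and 0.768).

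**Figure D3:**
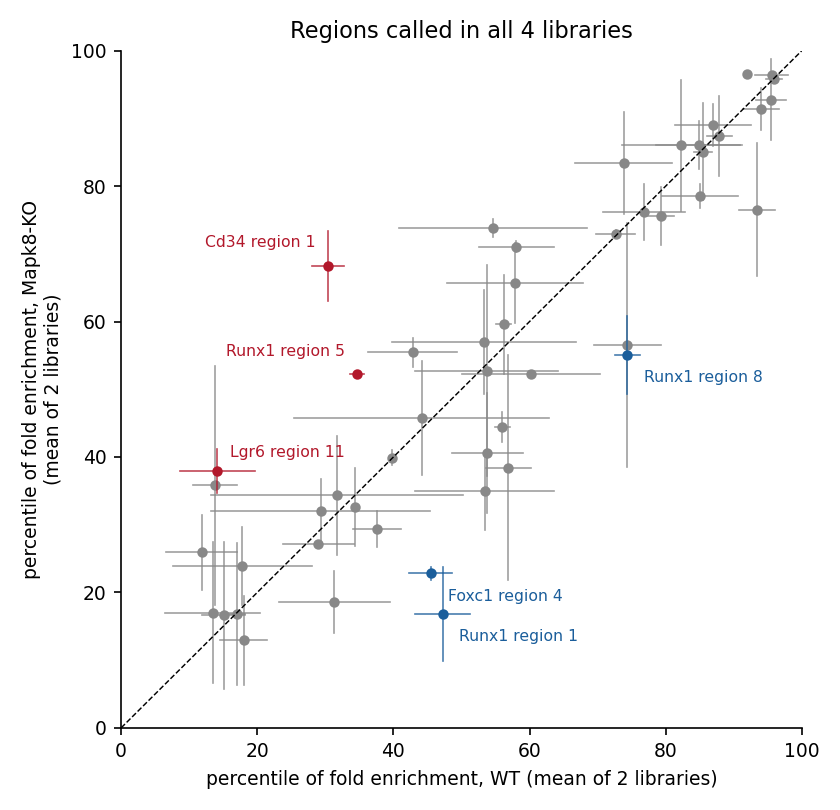
Percentile of fold enrichment in WT (x axis) against Mapk8-KO (y axis) for the 50 regions called in all 4 libraries. Points are means of 2 libraries, lines run between the 2 libraries of a genotype, the dashed line marks equal ranks, and the 6 coloured, named regions have a gap of at least 10 points; Cd34 region 1 lies farthest from the dashed line.

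Over the 50 regions, the median difference in percentile (WT minus Mapk8-KO) was 0.0656 points, against -0.481 over all 40159 regions called in all 4 libraries. The median log2 pileup difference was -0.04 against -0.05. Both medians were thus near 0 and near those of all regions. The regions of the 10 genes ranked lower than the atlas in every library, with median percentiles of 63.3, 48.3, 56.3 and 50.6 against 68.0, 60.8, 69.3 and 58.6.

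Tested across all 40159 regions with limma on log2 pileup, none of the 50 regions was called at an adjusted p of 0.05 or less, when 0.605% of all regions were, 199 of them higher in WT (0.496%) and 44 higher in Mapk8-KO (0.11%). At an unadjusted p under 0.05 there were 6 of 50 (12.0%, against 11.3% of all regions), 4 of them higher in WT. The same fit with the replicate number as a block, with fold enrichment in place of pileup, with quantile scaling or without a variance trend also called none of the 50, and with a filter on low pileup none of the 45 that passed it. The log2 differences of the 50 regions ran from -0.83, at Cd34 region 1, to 0.65, at an Nfatc1 intron.

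Runx1, a factor that helps bulge cells to enter growth, had higher sums in both WT libraries. Its 8 regions called in all 4 libraries had a median log2 difference of 0.29 and sums of scaled pileup of 446 and 484 in WT and 402 and 362 in Mapk8-KO. The WT mean of 465 ± 26.8 (SD, n = 2) was 1.22 times that of Mapk8-KO, 382 ± 28.2 (SD, n = 2), and the groups did not overlap. With 2 libraries against 2, an exact permutation test over the 6 assignments of labels cannot give a two-sided p under 0.333, so no gene's sum could be called. Region 7 (chr16:92620724-92621429), an intron with an AP-1 site, had 66 and 51 fragments in WT and 61 and 25 in Mapk8-KO, and region 3 had 99 and 57 against 74 and 42. Scaled for depth, region 7 had 66.0 and 73.4 against 54.6 and 38.7 (log2 difference 0.55 ± 0.22, limma adjusted p = 0.294), and region 3 had 99 and 82.1 against 66.3 and 65.0 (0.41 ± 0.20, adjusted p = 0.415). On fold enrichment, the log2 differences were 0.06 for region 7 and -0.05 for region 3 (limma adjusted p = 0.979 and 0.98), and the percentiles of both overlapped between the genotypes, those of region 7 being 77.3 and 81.2 in WT and 79.9 and 71.3 in Mapk8-KO. Region 11 (chr16:92674053-92674508), an intron, had a difference of the opposite sign, with 26 and 19 fragments in WT and 32 and 24 in Mapk8-KO (log2 difference -0.34 ± 0.29, limma adjusted p = 0.71). The median percentiles of the 8 regions, 73.5 and 76.9 against 75.1 and 69.0, overlapped too, so the separation held for the summed pileup and not for the ranks. The P2 promoter, itself among the 8 regions, had no such separation. Start site P1 had no peak within 2 kb in any library, and the nearest region to it, 2400 bp away, was called in WT 1 alone with 17 fragments.

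**Figure D4:**
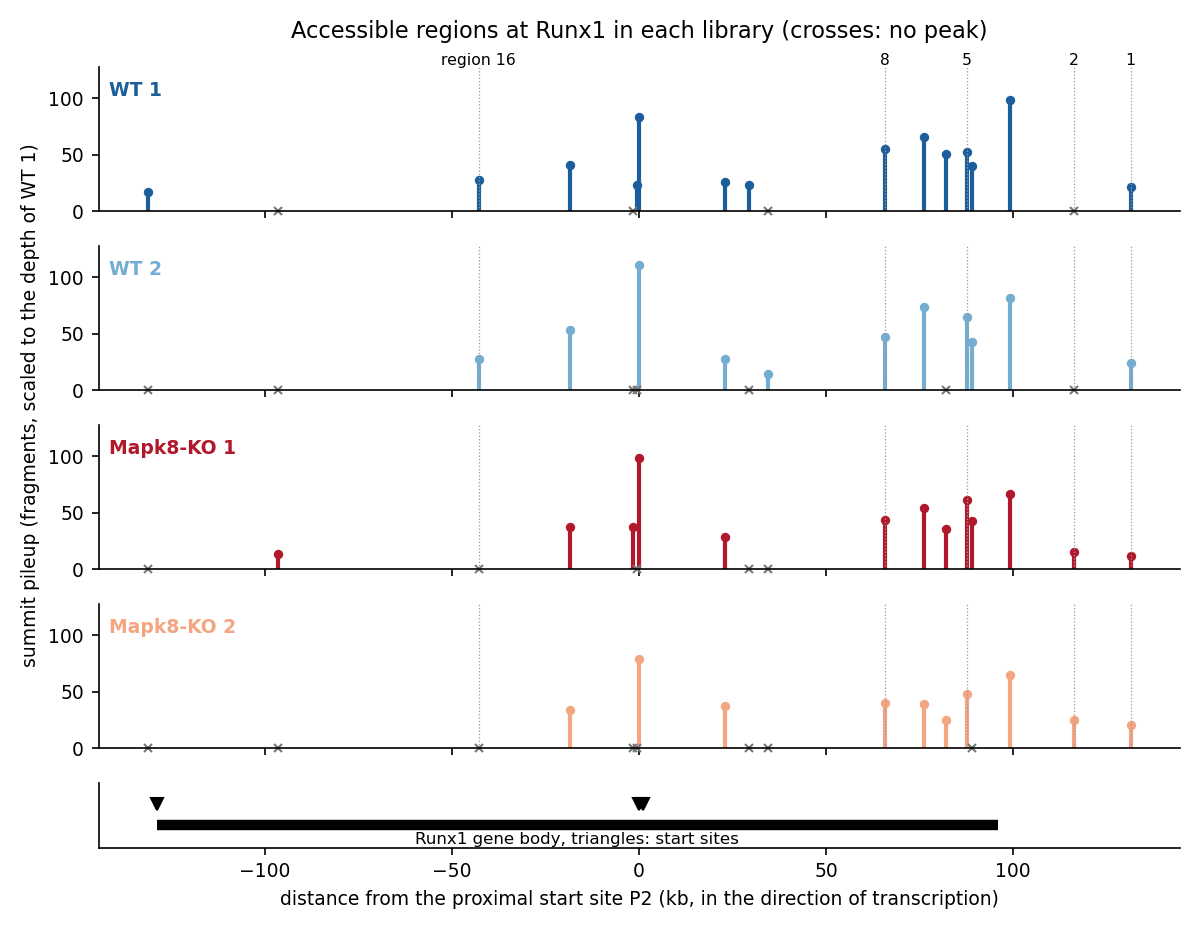
Summit pileup (fragments, scaled to the depth of WT 1) of the 18 regions at Runx1 in each library, by distance in kb from the start site P2, with crosses where no peak was called and triangles at start sites. Region 16 has a peak in the WT libraries only (28 and 19 fragments before scaling), region 2 in the Mapk8-KO libraries only (17 and 16), and the start site at the far left, P1, has no peak within 2 kb.

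The sums of Sox9, Lgr5 and Lgr6 did not overlap between the genotypes either, with WT at 1.12, 1.20 and 0.902 times Mapk8-KO. Each gave p = 0.333 in the exact permutation test, so a share of 0.333 of label assignments separates the libraries as far. The share of such genes among all genes was not computed, so no trait of these genes is read from it. For Sox9 the sums of scaled pileup were 113 and 137 in WT against 111 and 111 in Mapk8-KO, and for Lgr5, over 2 regions, 110 and 90.7 against 81.5 and 85.1. Lgr6 went the other way, with 147 and 138 against 152 and 164. For Lhx2, Tcf7l1, Nfatc1, Tbx1, Foxc1 and Cd34 the libraries of one genotype enclosed or overlapped those of the other.

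At Nfatc1, a calcineurin-regulated factor that keeps bulge cells quiescent, neighbouring intronic regions were among the 3 of the 50 regions with the lowest adjusted p. Region 17 (chr18:80684390-80684878), with an AP-1 site, had 82 and 46 fragments in WT and 66 and 23 in Mapk8-KO, or 82.0, 66.2, 59.1 and 35.6 when scaled. Region 16 (chr18:80682753-80683219), without one, had 62, 37, 50 and 18, or 62.0, 53.3, 44.8 and 27.9. In both, Mapk8-KO 2 was lowest and Mapk8-KO 1 lay nearer to WT 2 than to Mapk8-KO 2. The log2 differences were 0.64 ± 0.22 and 0.65 ± 0.25, with limma adjusted p = 0.183 and 0.245. On fold enrichment they were 0.30 and 0.31 (limma adjusted p = 0.833 and 0.837), and the percentiles overlapped, with 79.3 and 69.4 in WT and 74.5 and 38.5 in Mapk8-KO at region 17. Left without Mapk8-KO 1, the log2 pileup differences of regions 17 and 16 were 0.97 and 0.97, and without Mapk8-KO 2 they were 0.30 and 0.34. Without WT 1 they were 0.48 and 0.55, and without WT 2 they were 0.79 and 0.76. Each such fit has a group of 1 library, with no spread of its own, so no call is read from it.

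Of the Nfatc1 promoter regions, only 18 and 21 were called in all 4 libraries and so tested, and limma called neither. Regions 19 and 20 were not tested. Region 21 (chr18:80714438-80715766), 1367 bp upstream of the first start site, had 48 and 30 fragments in WT and 64 and 43 in Mapk8-KO, or 48.0 and 43.2 against 57.3 and 66.5 when scaled (log2 difference -0.49 ± 0.23, limma adjusted p = 0.397). Over the start sites, region 20 had 29, 46 and 28 fragments in WT 1, Mapk8-KO 1 and Mapk8-KO 2 and no peak in WT 2, and region 19 had 33 and 42 in WT 1 and Mapk8-KO 1. The downstream start site, region 18, had 40, 29, 42 and 31, with percentiles of 39.3, 40.4, 38.8 and 41.0, so nearly equal in rank. The WT-specific intron, region 10, was at chr18:80631518-80631873.

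**Figure D5:**
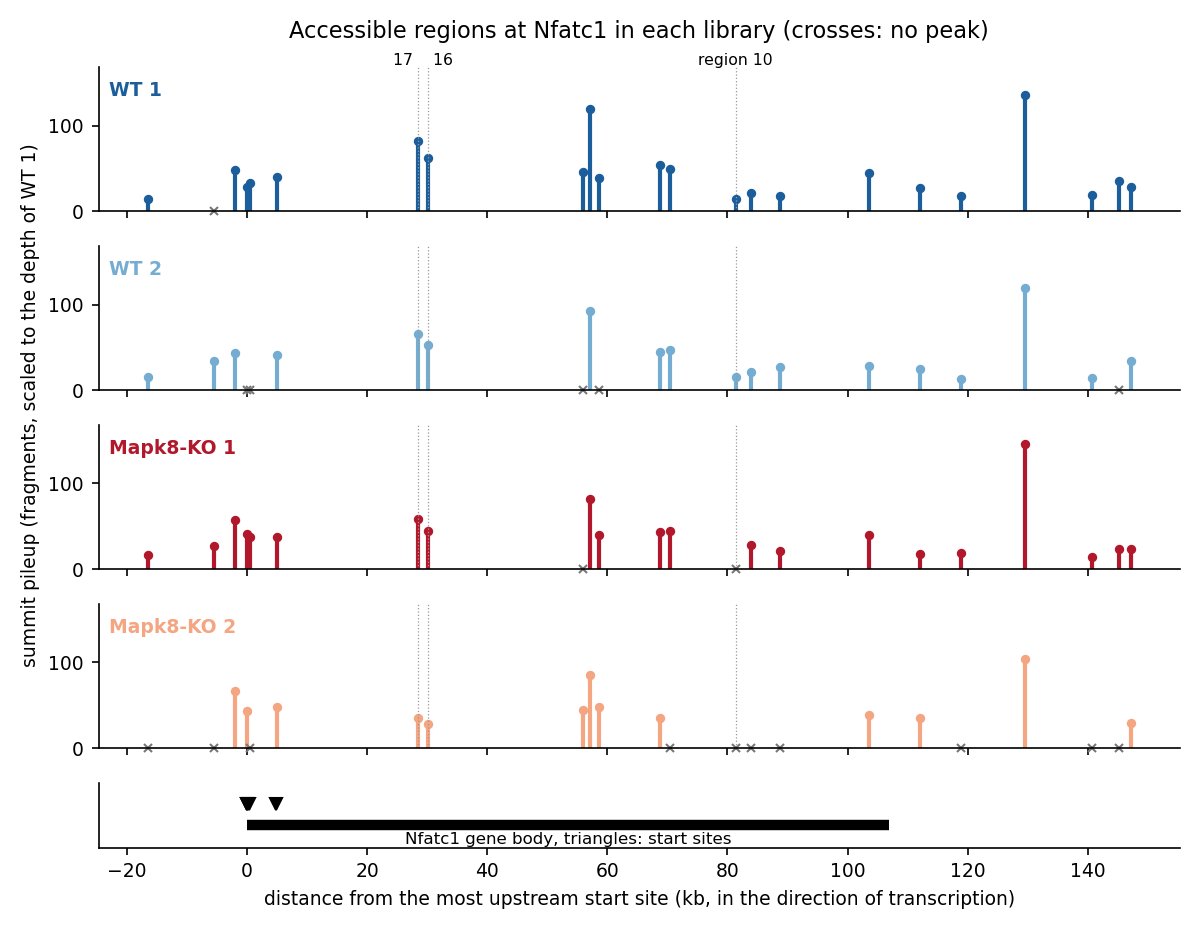
Summit pileup (fragments, scaled to the depth of WT 1) of the 23 regions at Nfatc1 in each library, by distance in kb from the most upstream start site, with crosses where no peak was called and triangles at start sites. Regions 17 and 16 fall to 35.6 and 27.9 in Mapk8-KO 2, and region 10 has a peak in the WT libraries only.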

How the data were processed

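ATAC-seq peak lists of 2 WT and 2 Mapk8-KO libraries were used. Following their methods, the authors aligned read pairs to mm10 with Bowtie2, dropped ambiguous or poor alignments, and ran MACS2 on each library separately. The deposited lists hold the fold enrichment at the summit over local background, a score derived from q, −log10 p and −log10 q values, and the summit's offset, another deposited column. The highest listed q was 0.0097. Total reads are unknown from these lists, which limits the precision of depth.

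Peaks were merged at 1 bp and regions within 50 kb of the 10 gene bodies (GENCODE M21) kept. Named regions were those within 2 kb of an own start site, the highest-ranking one outside promoters per gene, and those specific to a genotype, past a rank gap of 10 points, or called by limma. Runx1 regions 4, 6, 7, 11 and 18, Lgr6 region 6, Nfatc1 regions 16 and 17, Cd34 region 4 and Sox9 region 1 were named after their values were seen. Summit pileup in whole fragments was recovered from fold and −log10 p, to within 0.05, for at least 99.996% of peaks per list. Log2 pileup, centred by the library median, was tested with limma 3.58.1 (R 4.3.3, variance trend, Benjamini-Hochberg over 40159 regions) and checked on simulated data. Groups were 2 libraries each, described as independent samples, whose separate origin from animals the labels do not give, so p-values measure the spread between these libraries. Read counts per region, needed for DESeq2 as in the study, were not used here. Members, lists and motifs were chosen with earlier results of these data known. Python 3.11.15, pandas 2.3.3 and scipy 1.17.1 were used.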

Additional observations from a re-analysis of the deposited data

How the results depend on the processing

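Of 50 values under alternative settings, 19 moved by more than their margin. For the median percentile difference the margin was 8.02 points, the SD between libraries of a genotype, so no stability is read from it, and the difference fell below 0 under 6 of 10 settings. It was -0.176 when ranked by −log10 p, -0.192 by nearest start site, -0.0675 outside promoters and -0.00843 with windows of 100 kb. More Mapk8-KO-specific than WT-specific regions were counted under 3 of 10 settings. With equal lists there were 3 against 2 (3.53% and 2.35%, where the atlas had 2.32% and 2.7%). Without WT 1 there were 10 against 5, and the atlas also had more, 6.51% against 4.36%. Without Mapk8-KO 2 there were 13 against 4, and the atlas had 10.1% against 2.56%. WT-specific regions numbered 2 in place of 4 after the lists were cut to equal length. By nearest start site there were also 2 (4.55%, against 2.17% of the atlas). Mapk8-KO-specific regions went from 1 to 2 when peaks had to cover 50% of a region, to 3 with equal lists (Runx1 region 2 not among them), to 0 with windows of 10 kb and to 0 by nearest start site. With a gap of 20 points, 1 region (Cd34 region 1, towards Mapk8-KO) passed in place of 6, where 0.67% of the atlas passed in that direction. The AP-1 share was 12.1% within 50 bp of the summit, against 17% of the atlas. With windows of 100 kb it was above the atlas, at 25.7% (47 of 183 regions) against 23.8%.

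Leaving out 1 library at a time gave 4 to 19 WT-specific regions. There were 19 without WT 2 (16.4%, against 11.3% of the atlas) and 16 without Mapk8-KO 1 (13.8%, against 12.1%). Mapk8-KO-specific regions numbered 2 to 13. There were 13 without Mapk8-KO 2 (11.2%, against 10.1%) and 10 without WT 1 (8.62%, against 6.51%). There were 3 without Mapk8-KO 1 (2.59%, against 3.63%) and 2 without WT 2 (1.72%, against 2.21%). Past the rank gap were 12 to 16 regions. Without WT 1, 3 of 51 passed towards WT (5.37% of the atlas) and 13 towards Mapk8-KO (17.6%). Without WT 2, 10 of 59 passed towards WT (11.2%) and 3 towards Mapk8-KO (7.93%). Without Mapk8-KO 1, these were 8 of 50 (20.6%) and 4 (7.91%), and without Mapk8-KO 2, 5 of 62 (5.84%) and 8 (13.6%). Median percentile differences ran from -3.58 without Mapk8-KO 2 to 4.36 without Mapk8-KO 1, with -3.14 without WT 1. In limma fits without 1 library, the lone library of a group was assumed to vary like the other group.

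With the replicate number as a block, 7 of the 50 regions passed the rank gap. Of these, 4 were towards WT (5.77% of the atlas passed) and 3 towards Mapk8-KO (6.86%). With the same block, limma called 0 of the 50 regions and 386 of all regions, in place of 243. The changes of the 2 same-numbered pairs correlated at r = 0.0392 over regions, so the change hardly repeated from pair to pair. A batch shared by same-numbered libraries would cancel in such a change, so whether they shared one was not tested. Over all regions, limma called 0 with fold enrichment (2731 at an unadjusted p under 0.05), 29 with quantile scaling, 115 with a filter on low pileup, 0 without a variance trend (3987), 28 without WT 1, 6 without WT 2, 1717 without Mapk8-KO 1 and 21 without Mapk8-KO 2. Depth limits weak regions, such as those at the Lgr5 and Lgr6 promoters, to a handful of fragments above the lowest listed pileup.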

Other observations

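Around 20 other genes of the hair follicle, 285 regions lay within 50 kb, 135 of them called in all 4 libraries. Promoters of 15 of the 20 genes were called in all 4 libraries, the highest being that of Id2, an inhibitor of helix-loop-helix factors, with 131, 85, 155 and 96 fragments in the order WT 1, WT 2, Mapk8-KO 1, Mapk8-KO 2. Lrig1, a marker of the junctional zone stem cells, had 105, 61, 104 and 73, and Krt15, a keratin of basal and bulge cells, 18, 13, 26 and 14. The promoter of Shh, a ligand of the growing follicle, was called in none.

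Of these regions, 4 were WT-specific (1.4%, against 2.17% of the atlas) and 3 Mapk8-KO-specific (1.05%, against 1.65%), and an AP-1 site lay within 100 bp of the summit of 3 of the 4 and 1 of the 3. Of the 135 regions, 1 was called by limma (0.741%, against 0.605% of all regions; WT higher), in the window of Tcf7l2, a Wnt pathway factor of the same family as Tcf7l1 (chr19:55714016-55714422). It had 52 and 51 fragments in WT and 34 and 18 in Mapk8-KO, a log2 difference of 1.04 ± 0.25 (SE, n = 2 and 2, limma adjusted p = 0.0214), and an AP-1 site within 100 bp of its summit. This call was lost with fold enrichment and without a variance trend, where limma called 0 of all regions. The nearest start site was that of 4930552P12Rik. The strongest WT-specific region lay in the window of Bcl11b (chr12:107884095-107884659), with 25 and 20 fragments, and the strongest Mapk8-KO-specific region in that of Edar, the ectodysplasin receptor (chr10:58559083-58559369), with 27 and 18, neither with an AP-1 site.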
